A study of Mus musculus with 2 samples.

Results

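Fine cluster 10 is a group of 112 CD8 T cells from mouse colon whose T cell receptor RNA was dominated by the same few variable segments. Its members are the cells given the value 10 in the finest clustering of the authors' deposited annotation, 112 of 8562 cells, and 109 of the 112 came from the hashtag Cren 3. RNA was read cell by cell in droplets, from the 5′ end of transcripts (10x Genomics 5′ chemistry). The CD8 T cells had been isolated from the lamina propria of the colon and marked with 8 hashtag antibodies, and the 8 lots were pooled into 1 library. The annotation names the hashtags Crep 1 to Crep 4 and Cren 1 to Cren 4.

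Every host was a Rag1 KO mouse, which makes no T or B cells of its own. Each host received splenic wildtype naive CD4 T cells (CD4+CD45RBhighCD25-), which drive colitis in such hosts, and splenic CD8 T cells (TCRb+CD8b+CD4-) from Bcl6fl/flCd8aCre or Bcl6fl/fl donors. The mice were 8 to 12 weeks old at transfer, and the CD8 T cells were isolated 6 to 10 weeks later. In both donor genotypes part of Bcl6, a transcriptional repressor, is flanked by loxP sites, and Cre is driven by Cd8a in the Bcl6fl/flCd8aCre donors. Crep and Cren are read here as Cre-positive (Bcl6fl/flCd8aCre) and Cre-negative (Bcl6fl/fl), which no source used here spells out. Levels are given as CPM, a gene's UMIs (unique molecules counted) as a part of all UMIs of the cells, scaled to a fixed total. Bcl6 was at 32.4, 29.9, 30.5 and 24.3 CPM in Crep 1 to Crep 4 outside cluster 10, against 16.7, 17.6, 14.6 and 20.5 in Cren 1 to Cren 4. The Crep cells thus held more Bcl6 RNA, and since the sources used here do not say which part of the gene is flanked, this level does not check the genotypes. No source says that each hashtag is a separate mouse, so the spread between hashtags may be smaller than that between animals.

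The 8562 cells held 25614763 UMIs over 12798 genes, 4157 cells in Crep and 4405 in Cren. Cluster 10 cells had a median of 3109 UMIs and 1396.5 genes each, against 2808.5 UMIs and 1265.5 genes in the other cells of Cren 3. Their median mitochondrial share was 0.66%, against 0.67% in the other Cren 3 cells, and their heat shock share 0.45%, against 0.46%. No barcode occurred more than once, and both hashtag classifiers gave the annotated hashtag for all 112 cells.

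A T cell receptor on a CD8 T cell is a pair of an α and a β chain. In each developing T cell, a variable (V) segment of the Tra or Trb locus is joined to a joining segment (in Trb through a diversity segment) and read together with a constant gene. All descendants of that cell keep the same joined segments. A cell usually makes β chains from a single Trb allele but can rearrange and transcribe both Tra alleles. Trbc1 and Trbc2 are alternative β constant genes, each beside its own set of joining segments. The joint itself, which tells clones apart, was not analysed here, so cells that share V segments are described as such and not as a clone.

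The V segments that carry the cluster were Trav7-3, Trav1 and Trbv2, with Trav6-3 in fewer cells. Their last coding exons, which hold nearly all of the V region, are shown from the GENCODE annotation of build GRCm38 (mm10), 5′ to 3′, because these are the sequences whose RNA sets the cells apart. Capitals run from the last in-frame cysteine codon, where the joint region begins, to the end of the germline exon. Trbv2 lies on chromosome 6 and the others on chromosome 14, all on the plus strand. The exons are at chr14:53443552-53443839 for Trav7-3, chr14:52428594-52428876 for Trav1, chr6:41047701-41047995 for Trbv2 and chr14:53430086-53430377 for Trav6-3.
Trav7-3: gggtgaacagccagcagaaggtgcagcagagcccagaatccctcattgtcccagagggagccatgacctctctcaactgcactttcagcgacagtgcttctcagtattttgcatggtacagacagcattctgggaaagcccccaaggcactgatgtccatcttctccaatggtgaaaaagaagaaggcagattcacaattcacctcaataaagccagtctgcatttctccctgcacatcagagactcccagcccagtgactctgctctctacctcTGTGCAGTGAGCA
Trav1: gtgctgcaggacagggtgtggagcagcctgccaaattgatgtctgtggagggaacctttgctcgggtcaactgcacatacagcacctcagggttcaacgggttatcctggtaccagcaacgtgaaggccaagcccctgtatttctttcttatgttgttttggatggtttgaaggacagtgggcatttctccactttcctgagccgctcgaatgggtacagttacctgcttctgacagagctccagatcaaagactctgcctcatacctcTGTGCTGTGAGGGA
Trbv2: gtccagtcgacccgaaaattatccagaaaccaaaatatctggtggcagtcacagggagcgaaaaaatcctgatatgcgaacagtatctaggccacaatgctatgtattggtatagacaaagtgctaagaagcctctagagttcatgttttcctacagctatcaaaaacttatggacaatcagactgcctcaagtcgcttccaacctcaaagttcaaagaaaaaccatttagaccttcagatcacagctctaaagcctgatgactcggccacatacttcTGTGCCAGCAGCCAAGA
Trav6-3: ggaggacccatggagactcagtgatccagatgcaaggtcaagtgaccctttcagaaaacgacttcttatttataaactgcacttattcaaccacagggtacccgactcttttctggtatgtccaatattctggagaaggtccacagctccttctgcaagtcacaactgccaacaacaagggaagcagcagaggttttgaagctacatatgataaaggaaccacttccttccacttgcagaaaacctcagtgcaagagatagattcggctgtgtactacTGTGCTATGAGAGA

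Over the whole coding sequence, Trav7-3 differed from its closest relative, Trav7d-3, at 2 of 337 aligned bases, and Trav6-3 differed from Trav6d-3 at 1 of 338. Both relatives are in the count table and had 0 UMIs in cluster 10. How reads that fit both copies of such a pair were counted is not given in the sources used here, so the Trav7-3 and Trav6-3 values may stand for either member of their pair. Trav6-3 ends 12872 bases before Trav7-3 starts, while Trav1 ends 1014373 bases before it.

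Trav7-3 was detected in 106 of the 112 cells (94.6%, 95% Wilson interval 88.8 to 97.5) with 503 UMIs. The other cells of Cren 3 showed it in 2.74%, all other Cren cells in 1.12% and cluster 11, the smallest cluster, in 5.48%. Trav1 was detected in 96 cells (85.7%, 78.0 to 91.0), against 2.13% of the other Cren 3 cells. Both α segments together were seen in 90 of the 112 cells, and each of the 6 cells without a Trav7-3 UMI had Trav1. All other Trav genes were seen in at most 0.893% of the cluster, apart from Trav6-3. Intervals on shares and levels cover counting error only.

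Trbv2 was the only frequent β segment. It was detected in 90 cells (80.4%, 72.0 to 86.7), against 2.94% of the other Cren 3 cells, 2.79% of all other Cren cells and 5.48% of cluster 11. The next β segments, Trbv3 and Trbv16, were seen in 3.57% and 2.68% of the cluster. Of the 22 cells without a Trbv2 UMI, 17 had no Trbv UMI at all and 5 had another Trbv gene. These 22 cells had a median of 2459.5 UMIs, against 3292 in the 90 cells with Trbv2. Trav6-3 was detected in 45 cells (40.2%, 31.6 to 49.4), against 0.406% of the other Cren 3 cells, and 44 of the 45 also had Trav7-3. Outside the cluster, 22 of 82 cells with Trav7-3 had Trav6-3. Because the 3 main segments occur in other cells of the same pool at low shares, a lone UMI is weak evidence for a segment. The lowest shares were in Crep 4, with 0.191% for Trav7-3, 0.0956% for Trav1 and 0.287% for Trbv2. In cells thinned to 2000 UMIs each (94 cluster 10 cells, 751 other Cren 3 cells), the cluster's shares were 91.5% for Trav7-3, 79.8% for Trav1, 62.8% for Trbv2 and 26.6% for Trav6-3.

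**Figure D1:**
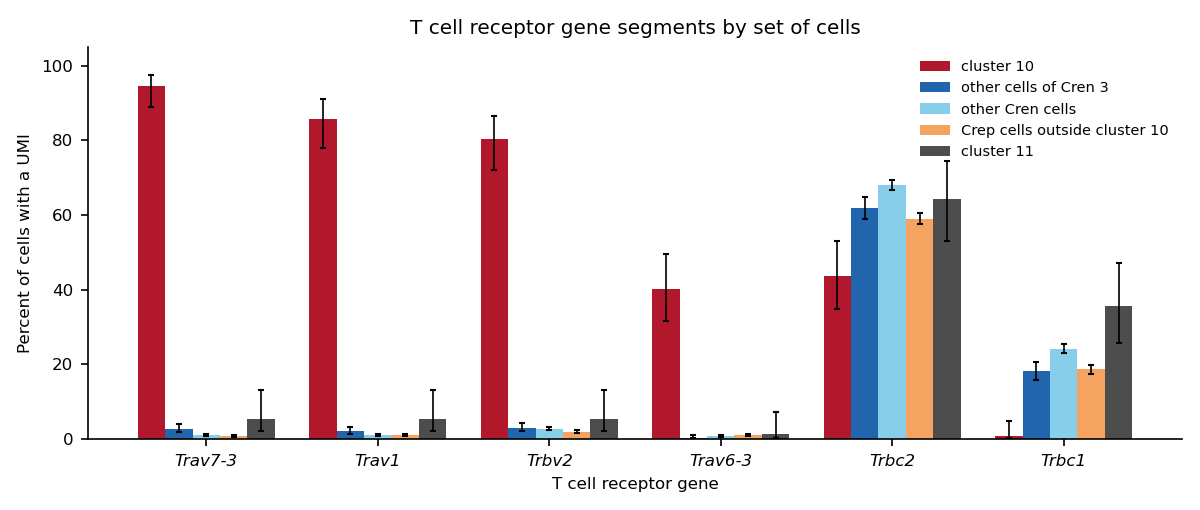
Percent of cells with at least 1 UMI of 4 variable segments and of both β constant genes, in cluster 10 (112 cells), the other cells of Cren 3 (986), all other Cren cells (4295, which include those of Cren 3), the Crep cells outside the cluster (4155) and cluster 11 (73). Bars are shares and lines are 95% Wilson intervals. Cluster 10 stands at 94.6%, 85.7% and 80.4% for the 3 main segments, where the other sets stay at or under 5.48%, and at 0.893% for Trbc1.

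The cluster's β and α RNA also differed in amount. All Trbv genes together gave 633 CPM in cluster 10 (95% Poisson interval 554 to 719), against 2093 (2041 to 2146) in the other Cren 3 cells and 1699 in all other Cren cells. All Trav genes together gave 2250.1 CPM (2099.8 to 2408), against 762 (731 to 794) and 742. The other hashtag lots lay between 1130.5 and 1807 for Trbv outside the cluster, and between 577 and 1039 for Trav. Cluster 10 was below every lot for Trbv and above every lot for Trav. Trbv2 made up 91.5% of the cluster's Trbv UMIs, and Trav7-3, Trav1 and Trav6-3 made up 99.2% of its Trav UMIs.

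The β constant genes were also lower than in the other Cren cells, while the α constant gene was not higher. Trbc1 was seen in 1 of the 112 cells (0.893%), against 18.2% of the other Cren 3 cells, 24.2% of all other Cren cells and 35.6% of cluster 11. Trbc2 was seen in 43.8%, against 62.0%, 68.1% and 64.4%. Together the β constant genes gave 338 CPM (281 to 403) in cluster 10, against 796 in the other Cren 3 cells and 909 in all other Cren cells. Crep 4 outside the cluster was at 376 CPM, within the cluster's interval, and the remaining lots were at 682 to 1011. Trbc2 was seen in 42.8% of those Crep 4 cells and Trbc1 in 8.51%. Trac, the α constant gene, was seen in 33.9% of the cluster and in 32.3% of the other Cren cells, with a ratio of levels of 0.91. Trdc, the δ constant gene, was seen in 0 of 112 cells, which allows a share of up to 2.68%.

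Few cluster 10 cells showed more than a single β segment and most showed more than a single α segment. At least 2 Trbv genes were seen in 8.93% of the cluster, against 37.9% of the other Cren 3 cells and 39.7% of cluster 11. At least 2 Trav genes were seen in 88.4%, against 23.0% and 21.9%. After thinning, the Trbv shares were 5.32%, against 31.0% and 30.9%, and the Trav shares 85.1%, against 16.2% and 13.2%. Trbv2 and Trav7-3, the markers the cluster is named for, were seen in most of its cells, which describes the cluster and does not test it. The working name "one-segment" describes the β chain as detected, while the α chain showed Trav7-3 and Trav1 side by side in most cells. Trbv RNA was lower in the cluster (633 CPM, against 2093 in the other Cren 3 cells), which leaves fewer UMIs to show a second β segment. Thinning did not even this out, since 29.8% of the cluster's thinned cells had no Trbv UMI, against 9.59%. The part of this lower level in the shares above was not tested. How far the cells had multiplied was not measured.

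Cluster 10 was nearly all of a single hashtag lot. It held 109 of the 1095 cells of Cren 3 (9.95%, 8.32 to 11.9) and 1 cell each of Crep 1, Crep 3 and Cren 2. Crep 2, Crep 4, Cren 1 and Cren 4 had 0 cells, where a count of 0 allows shares of up to 0.275%, 0.287%, 0.230% and 0.333%. The mean share was 0.0495% ± 0.0572 in Crep and 2.51% ± 4.96 in Cren (SD, n = 4 each). The difference, -2.46 percentage points, was smaller in size than the SD of the Cren lots. A two-sided exact permutation test of the group labels gave p = 0.886 (smallest possible p 0.0286). With 109 of the 112 cells in 1 lot, this test cannot decide on a difference between the groups. Without Cren 3 the difference was 0.0193 points (exact permutation test, p = 0.571). Of the 3 cells from other lots, the Cren 2 cell had UMIs of all 3 main segments, and the Crep 1 and Crep 3 cells had Trav7-3 alone, with 2 and 4 UMIs. These 3 cells had 1990, 1636 and 1631 UMIs, below the cluster's median. Cluster 11 drew its 73 cells from all 8 lots, with 2 to 9 in each Crep lot and 6 to 28 in each Cren lot.

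Cells with the cluster's segments were also found in other clusters, almost all of them in Cren 3. Within cluster 10, 75 cells had UMIs of all 3 main segments, 30 had 2 of them, 7 had 1 and 0 had none. Outside it, 20 of 8450 cells had 2 or 3 of them, 18 in Cren 3, 1 in Cren 4 and 1 in Crep 3. That is 1.83% of the other Cren 3 cells (1.16 to 2.87), against 0 cells in 5 of the other lots. Of the 18, 4 were in cluster 11, which had 6 Cren 3 cells in all, and another 4 were in cluster 6, which had 108. The other 10 were spread over clusters 0, 1, 3, 4 and 8. Of the UMIs counted in Cren 3, cluster 10 held 86.4% for Trav7-3, 84.6% for Trav1 and 78.9% for Trbv2.

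**Figure D2:**
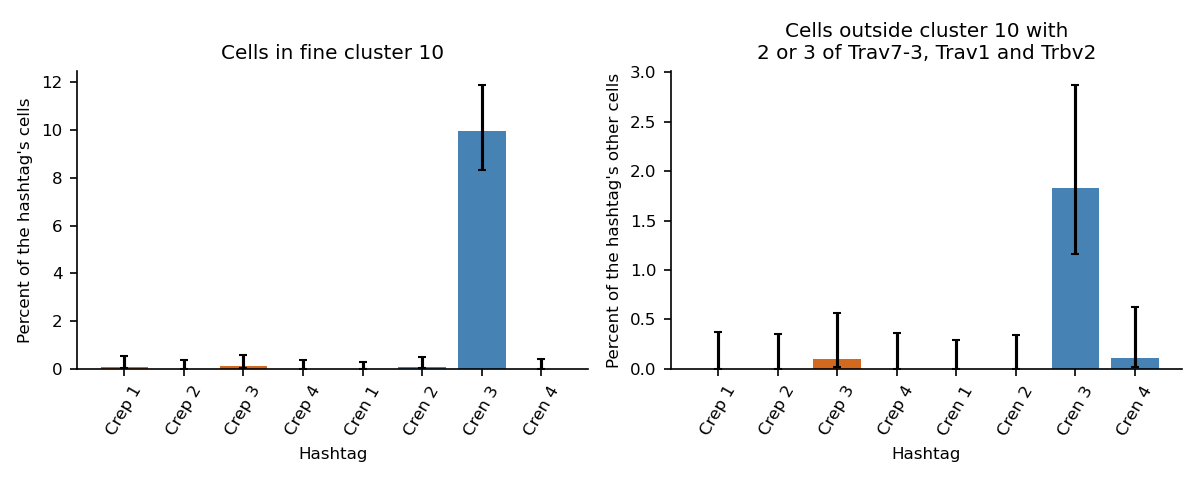
Left, percent of each hashtag's cells that are in cluster 10. Right, percent of each hashtag's other cells with UMIs of 2 or 3 of Trav7-3, Trav1 and Trbv2. Bars are shares, lines are 95% Wilson intervals, Crep in orange and Cren in blue. Cren 3 stands at 9.95% on the left and 1.83% on the right, and every other hashtag lies at or under 0.0999% on the left.

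On the authors' deposited map, whose axes are scores with no unit, cluster 10 formed the tightest group of the 12 clusters. The median distance of its cells to their centre was 0.192, against 0.244 in cluster 11. In the authors' coarser clusterings the cells were not apart from cluster 11. At resolutions 0.1, 0.2, 0.4 and 0.6, a cluster made of 110, 110, 111 and 112 cells of cluster 10 and of 53, 55, 67 and 69 cells of cluster 11 held 0 other cells. At resolutions 0.8 and 0.9 the 112 cells stood alone. Of the 20 cells outside cluster 10 with 2 or 3 of the segments, 4 had a cluster 10 cell as their nearest neighbour on the map, and the 4 in cluster 11 lay next to each other. Whether receptor genes were left out before clustering is not given in the sources used here.

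**Figure D3:**
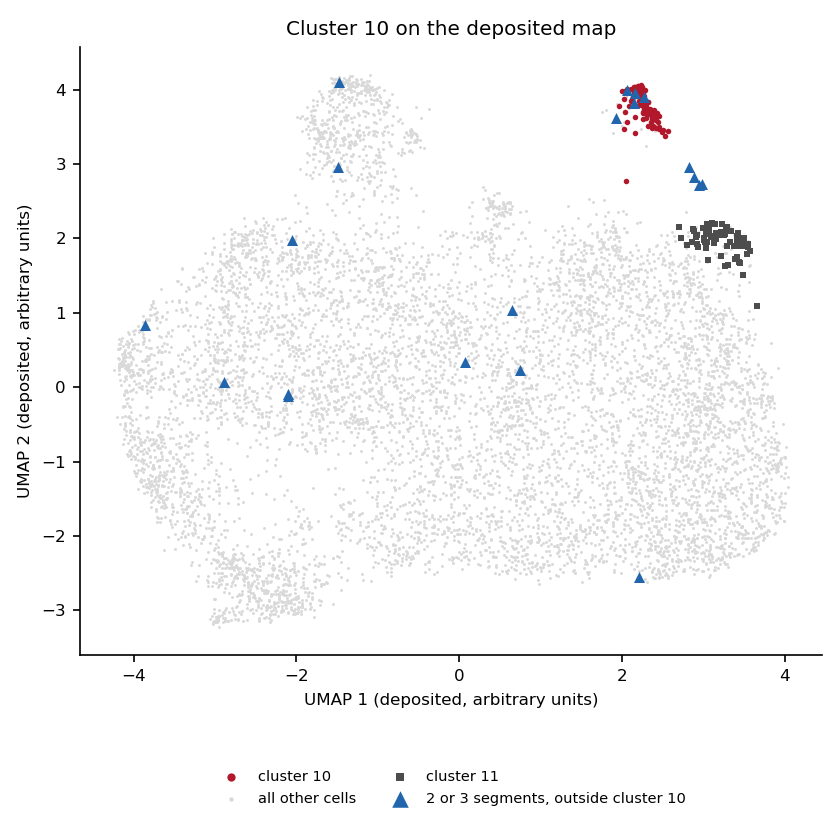
Deposited map of all 8562 cells, both axes in arbitrary units. Points are cells, in cluster 10 (red), cluster 11 (dark grey squares) or elsewhere (light grey), and blue triangles mark the 20 cells outside cluster 10 with UMIs of 2 or 3 of Trav7-3, Trav1 and Trbv2. Cluster 10 is a compact group with a median distance of 0.192 to its centre, and most triangles lie outside it. For 90 of its 112 cells the nearest cell on the map was also in cluster 10.

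Beyond the receptor, cluster 10 had more RNA of the effector genes Klrg1 and Zeb2 than the other Cren cells, and less of Itgae, Cd28, Ctla4 and Il7r. The cells had been grouped on their expression, so these differences are descriptions with no test. The 110 Cren cells of the cluster were set against the 4295 other Cren cells. Genes were compared where the 2 sets together held at least 20 UMIs and either reached 100 CPM, and were called where the ratio of the levels was at least 2 or at most 0.5. Of 1575 such genes, 33 were called (2.10%), 15 higher (0.952%) and 18 lower (1.14%) in cluster 10. Receptor genes aside, 11 were higher and 10 lower. The median ratio over the 1575 genes was 1.06. Against the other cells of Cren 3 alone, 34 of 1597 genes were called (2.13%), and 23 genes were called in both comparisons.

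Klrg1, an inhibitory lectin receptor of highly differentiated effector CD8 T cells, was at 327 CPM in cluster 10, against 158, 98.0, 113 and 25.4 in the other cells of Cren 1 to Cren 4. Every lot was below the cluster, and the ratio to all other Cren cells was 3.09 (95% counting interval 2.54 to 3.73). It was seen in 48.2% of the cluster and 17.6% of the other Cren cells. Zeb2, a transcriptional repressor of the terminal effector programme, was at 120 CPM, against 44.5, 61.3, 50.7 and 32.9, a ratio of 2.52 (1.81 to 3.42). Klre1, a killer lectin receptor, had a ratio of 2.31 (1.71 to 3.06) and Itgax, the integrin CD11c that some effector CD8 T cells carry, 2.13 (1.52 to 2.91). Against the other Cren 3 cells alone the ratios of Klrg1, Zeb2, Klre1 and Itgax were 2.91, 2.37, 1.71 and 1.51. Cx3cr1, a chemokine receptor of cytotoxic effector cells, did not reach 100 CPM and was singled out after its values were seen. It was at 87.3 CPM, against 37.4, 21.4, 30.6 and 7.20 in the 4 lots, a ratio of 3.39 (2.28 to 4.88).

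Gm15494 and Gm20400, annotated as antisense RNAs on chromosomes 7 and 6, were higher in cluster 10 than in any of the other 11 clusters. Gm15494 was at 469 CPM, against 129, 133, 134 and 256 in the other cells of Cren 1 to Cren 4, a ratio of 2.99 (2.54 to 3.49). Gm20400 was at 322, against 176, 66.3, 137 and 131, a ratio of 2.46 (2.02 to 2.97). Whether the counting used strand is not given in the sources used here, so reads of overlapping genes cannot be told apart. Eps8l1, which overlaps Gm15494 on the other strand, was at 13.6 CPM in cluster 10 and 3.86 in the other Cren cells, and Slco1a6, which overlaps Gm20400, was at 5.46 and 6.10.

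The other named higher genes were Gadd45b, Tesc, Camk2b, Gem, Ptms and Ern1. Gadd45b, a stress and activation response gene, was at 366 CPM, against 187, 184, 159 and 92.4 in the 4 lots (ratio 2.28, 1.90 to 2.71). Tesc, a calcium-binding protein, had a ratio of 2.24, Camk2b, a subunit of a calcium-dependent kinase, 2.16, and Gem, a small GTPase, 2.09. Ptms had 2.02 and Ern1, a sensor of unfolded protein in the endoplasmic reticulum, 1.97. The cluster was above all 4 lots for each of the 12 named higher genes, though Cren 2 lay within its counting interval for Ern1. Against the other Cren 3 cells alone the ratio was 1.37 for Gem, 1.53 for Ptms and 2.35 for Ern1.

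Ifitm1 and Itgae had the lowest ratios. Itgae, the αE integrin (CD103) that binds E-cadherin on gut epithelium, was at 30.0 CPM in cluster 10, against 112, 236, 110.0 and 206 in the other cells of Cren 1 to Cren 4, a ratio of 0.19 (0.093 to 0.33). Outside the cluster, Itgae was lower still in Crep 4, at 22.0, and at 113, 123 and 105 in Crep 1 to Crep 3. Ifitm1, an interferon-induced membrane protein, was at 32.7, against 489, 45.3, 242 and 118 (ratio 0.13, 0.068 to 0.23). Its lots differed by over 10-fold among themselves, and the lowest, Cren 2, was within the cluster's counting interval. Ifitm2 was at 21.8, against 223, 38.0, 81.0 and 68.2 (ratio 0.19), again with Cren 2 within the interval. Capg, an actin-capping protein, was at 32.7, against 110 to 136 (ratio 0.27).

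The other named lower genes were Xcl1, Cd28, Ctla4, Adam19, Rgs10, Il7r, Tigit and Tex14. Cd28, the main costimulatory receptor, was at 73.7 CPM in cluster 10, against 289, 209, 276 and 195 in the 4 lots (ratio 0.30, 0.20 to 0.43). Ctla4, which competes with Cd28 for the same ligands, was at 73.7, against 194, 226, 211 and 205 (ratio 0.35, 0.23 to 0.52). For both genes the 4 lots lay close together and the cluster lay well below them. Il7r, the interleukin-7 receptor of memory T cells, was at 393, against 849, 832, 591 and 1314 (ratio 0.45, 0.38 to 0.53), and against the other Cren 3 cells alone its ratio was 0.66. Xcl1, a chemokine that attracts dendritic cells, was at 32.7, against 129, 183, 85.8 and 89.8 (ratio 0.26). The ratios were 0.42 for Adam19, 0.44 for Rgs10, 0.54 for Tigit and 0.54 for Tex14. The level of each of the 12 named lower genes was below all 4 lots.

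**Figure D4:**
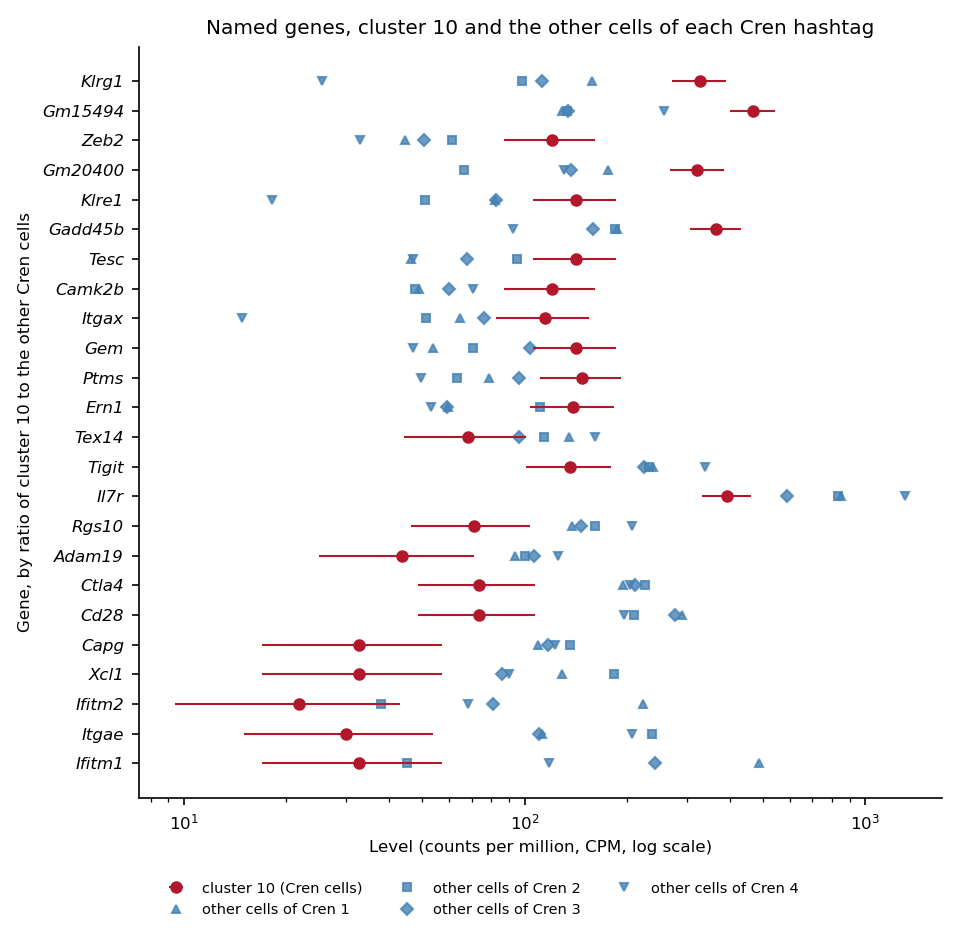
Level of the 12 highest and 12 lowest genes by ratio, receptor genes aside, in CPM on a log axis. Red points are the 110 Cren cells of cluster 10 with 95% Poisson intervals, and blue symbols are the other cells of each Cren hashtag. All 12 upper genes lie to the right of the 4 blue symbols and all 12 lower genes to the left, with Klrg1 at 327 and Itgae at 30.0 in the cluster. This follows in part from picking the genes by their ratio to these lots together.

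Gene lists placed these genes in context. Of 15 compared genes of a list of 20 cytotoxic effector genes, 2 were called higher (Klrg1 and Zeb2) and 0 lower, with a median ratio of 1.25 where all genes had 1.06. Gzmb, a granzyme, was at 1864 CPM in cluster 10 and 1100.4 in the other Cren cells (ratio 1.69), while Gzma, another granzyme, had 0.99. The summed level of the list was 43223 CPM, against 35654.5, 35255, 40266 and 22751 in the 4 Cren lots. Outside the cluster, Crep 1, Crep 3 and Crep 4 were above it at 44139, 45957 and 53671, and Crep 2 below it at 36111. Of 14 compared genes of the S100, annexin and galectin list, 0 were called higher and 1 lower (Capg), and 11 had ratios above 1, with a median of 1.29. Anxa2 (1.76), Crip1 (1.74) and Lgals1 (1.73) had its largest ratios. Its summed level was 14374 CPM, against 11266, 10493, 13139 and 6999 in the 4 Cren lots. Outside the cluster, Crep 2 and Crep 3 were higher, at 15788 and 15416, and Crep 1 and Crep 4 lower, at 13837.5 and 12643. Klre1 alone was called higher among 4 compared killer lectin receptor genes (median 1.43).

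Of 5 compared genes of a list of 17 stem-like memory genes, 0 were called higher and 2 lower (Xcl1 and Il7r), with a median of 0.66. Tcf7, a transcription factor of stem-like T cells, was level with the other Cren cells at a ratio of 1.00, and Klf2, which controls tissue egress, had 0.92. The summed level was 2008 CPM, against 3219.5, 2238, 2733 and 3033 in the 4 Cren lots. Outside the cluster, Crep 2 was below it at 1845, and Crep 1, Crep 3 and Crep 4 were above it at 2092, 2868 and 2506. Of 7 compared inhibitory receptor and exhaustion genes, 1 was called lower (Ctla4), with a median of 0.88, while Lag3 (1.502), Cd160 (1.53) and Nr4a1 (1.81) had ratios above 1. Pdcd1, Tox and Slamf6 did not reach 100 CPM in either set, and were singled out after their values were seen. Only Pdcd1 and Tox are given with levels here, so they do not speak for Slamf6. Pdcd1 (PD-1) was at 10.9 in cluster 10, against 71.2, 89.9, 106 and 69.3 in the 4 lots. Tox, a regulator of exhausted T cells, was at 5.46, against 32.1, 61.9, 114 and 41.3.

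Itgae was the only gene called among 6 compared tissue residency genes, whose median was 1.02. Cd69 had a ratio of 0.90 and Cxcr6 of 1.00. Cd28 was the only gene called among 9 genes of costimulation and receptor signal strength (median 0.96), in which Cd226, an activating receptor, had a ratio of 1.87. Of the 10 genes of the CD8 and CD3 complex list, Trbc1 and Trbc2 were called lower. Cd8a was at 1231 CPM in cluster 10 and 862 in the other Cren cells, and Cd8b1 at 1241 and 834, so RNA of both CD8 chains was present. None of the compared genes of the early response (13), interferon response (8), heat shock (10) and glycolysis (9) lists were called, with medians of 1.07, 1.21, 1.15 and 1.12, nor of the cell cycle (2), type 17 (1) and unconventional CD8 (3) lists. Xcl1 alone was called among 6 cytokine and chemokine genes. Lists with at least 4 compared genes, 13 in all, were also compared by summed level. Besides the cytotoxic effector and the S100, annexin and galectin lists, 5 of them had a summed level in cluster 10 above all 4 Cren lots. These were the killer lectin receptor, cytokine and chemokine, early response, CD8 and CD3 complex, and glycolysis lists. For the killer lectin receptor list the summed level was 1495 CPM, against 1452 in the highest Cren lot and 1551 in the lowest Crep lot. For the early response list it was 11858, against 11700 in the highest Cren lot. The cytokine and chemokine list was at 33888.5 CPM in cluster 10, above Crep 1 to Crep 3 but below Crep 4 (38247). The CD8 and CD3 complex list was at 7970, above Crep 4 but below Crep 1 to Crep 3 (8360, 8685 and 7994). The median ratio was 1.02 for the CD8 and CD3 complex list and 1.06 over all compared genes. Ccl5 and Ifng are in both the cytotoxic effector and the cytokine and chemokine lists, so these sums are not separate results. How often other lists would lie above all 4 lots was not tested. The stem-like memory list was below all 4 lots and the other 5 of the 13 lists lay within their range. Among lists with fewer compared genes, the unconventional CD8 list was at 2008 CPM, against 1272 to 1710 in the 4 Cren lots. The cell cycle list was at 1091, against 814 to 1020, so both were above all 4. Cd8a is in both the unconventional CD8 and the CD8 and CD3 complex lists.

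**Figure D5:**
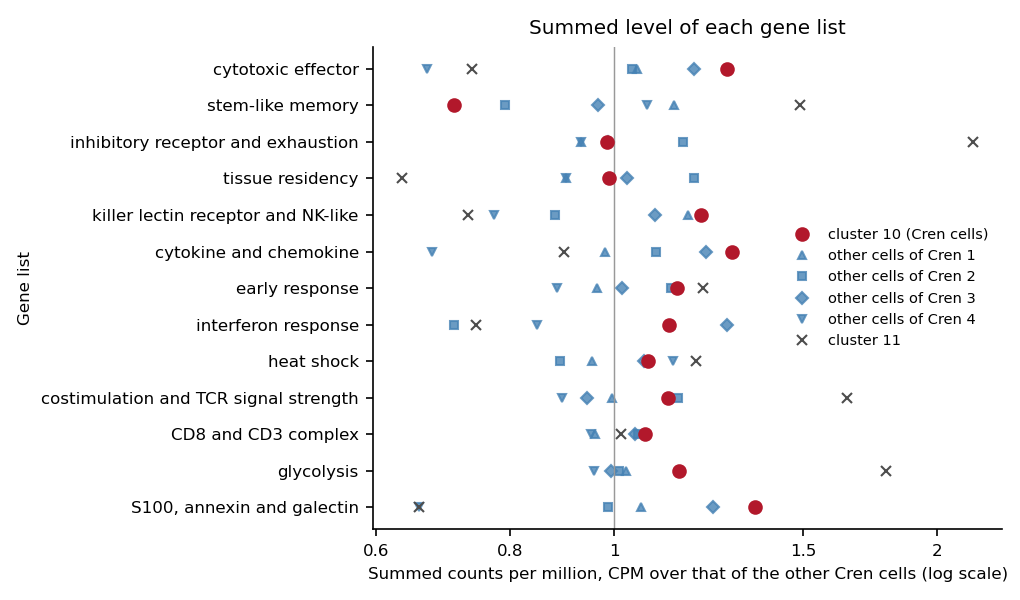
Summed level of each gene list with at least 4 compared genes, divided by that of the 4295 other Cren cells, on a log axis. Red points are the Cren cells of cluster 10, blue symbols the other cells of each Cren hashtag and crosses cluster 11. Crep lots are not drawn, and some of them exceed cluster 10. Cluster 10 lies right of all blue symbols for 7 of 13 lists, from the S100, annexin and galectin (1.35) and cytokine and chemokine (1.29) lists down to the CD8 and CD3 complex list (1.07), and left of them for the stem-like memory list (0.71). Over all compared genes the median ratio was 1.06, and some lists share genes.

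In cluster 10 the summed level of 6 CD4 T cell markers was 10.9 CPM, against 30.3 to 80.8 in the 4 lots outside it, below all 4, and 3 of the 6 (Cd4, Foxp3 and Tnfrsf4) were at 0 UMIs. The summed levels of the γδ, natural killer and innate, myeloid, B cell and epithelial lists lay within the range of the 4 Cren lots. The γδ list was at 491, against 379 to 701, and 4 of its 6 genes had UMIs in the cluster, with Trdc, the constant segment of the δ chain, and Trdv4 at 0. Of its γ chain segments, Trgv2 had UMIs in 59.8% of the cells of the cluster and in 51.9% of the other Cren cells, and Tcrg-C2 in 22.3% and 15.5%. The natural killer and innate list was at 134, against 104 to 148, with UMIs of 5 of 7 genes, and the myeloid list at 439, against 359 to 502, with UMIs of 9 of 13. The B cell and epithelial lists were each at 16.4, against 14.4 to 41.5 and 15.7 to 21.6, with UMIs of 2 of 3 and 1 of 3 genes. The part of these markers in the results above was not tested.

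Within Cren 3, the cluster nearest to cluster 10 in expression was cluster 3. Over 1404 genes with no receptor segments, the mean absolute log2 difference was 0.24 (117 cells), with a Pearson r across genes of 0.970. Cluster 6 followed with 0.26, and the other 6 clusters with at least 50 cells in Cren 3 had 0.28 to 0.31. Genes are not independent replicates, so these values describe likeness only, and cluster 11 had too few Cren 3 cells to be included. The 18 Cren 3 cells outside the cluster with 2 or 3 of its segments had 393 CPM of Gm15494 (32 UMIs), 160 of Klrg1 (13 UMIs) and 36.8 of Itgae (3 UMIs). These compare with 134, 113 and 110.0 in all Cren 3 cells outside the cluster, of which they are a part. Not every list went the way of the cluster in these 18 cells. Their stem-like memory list summed to 3842 CPM, against 2008 in cluster 10 and 2733 in all Cren 3 cells outside it. Their cytotoxic effector list summed to 47375 CPM, against 43223 and 40266.

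Against cluster 11, with which cluster 10 was joined at coarser resolutions, cluster 10 had less RNA of Xcl1, Tnfrsf9 and Ccl3 and more of Klf2, Tcf7 and Gzmk. All 112 cells of cluster 10 and 73 of cluster 11 were compared, so here the counts include both genotypes, and levels from so few cells are less exact than those of the other Cren cells. Cren 3 gave 109 of the 112 cells but 6 of the 73, so differences between clusters and between lots cannot be told apart here. Of 1802 genes, 406 were called (22.5%), 199 higher (11.0%) and 207 lower (11.5%) in cluster 10, with a median ratio of 0.97. Cluster 11 cells had a median of 4081 UMIs, against 3109 in cluster 10, and the part of depth in these ratios was not tested.

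Tnfrsf4, Xcl1, Ccl1, Penk, Apex1, Tnfrsf9, Nr4a3, Pdcd1, Lta, Ccl3, Capg and Crtam had the lowest ratios of cluster 10 to cluster 11. Xcl1 was at 32.5 CPM in cluster 10, against 3339 in cluster 11. Tnfrsf9 (4-1BB), a costimulatory receptor induced by antigen, was at 64.9, against 969 (ratio 0.067, 0.042 to 0.10). Ccl3, an inflammatory chemokine, was at 92.0, against 997, and Crtam, a receptor of activated CD8 T cells, at 51.4, against 481. Nr4a3, a nuclear receptor induced by T cell receptor signals, was at 21.6, against 309, Pdcd1 at 10.8, against 128, and Lta, a cytokine, at 13.5, against 147. Tnfrsf4 (OX40) had 0 UMIs in cluster 10 and 128 CPM in cluster 11. Penk and Ccl1 were at 10.8 and 2.70 in cluster 10, against 553 and 172, and rested on 15.1% and 17.8% of the cells of cluster 11. Apex1, a DNA repair enzyme, was at 5.41, against 109. Of 8 compared cytokine and chemokine genes, 5 were called lower and Ccl5 alone higher, at 3.41.

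The highest ratios to cluster 11 included those of Klf2, Tcf7 and Gzmk. Klf2 was at 1003 CPM in cluster 10 and 156 in cluster 11 (ratio 6.42, 4.77 to 8.81), S1pr4, a sphingosine-1-phosphate receptor, at 208 and 34.4, and Tcf7 at 151 and 25.01. Gzmk, a granzyme of memory-like effector cells, was at 581 and 100.04 (ratio 5.81, 4.00 to 8.71). Epsti1, an interferon-induced gene, was at 749 and 156, and 4 of 9 compared interferon response genes were called higher. Ripor2 had a ratio of 5.46, Slfn1 of 5.44 and Fam69a of 5.77, and Unc5cl, Rcbtb2 and Thap3 had 5.33, 5.31 and 4.82. Tuba1a, an α-tubulin, had the largest ratio, 32.0 (5.40 to 1298), on 1 UMI in cluster 11. For Klf2, Tcf7 and Gzmk the ratios of cluster 10 to the other Cren cells were 0.92, 1.00 and 1.03, so their levels in the cluster were close to those in the rest of Cren.

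The study's genotype comparison could not be made within cluster 10, which had 2 Crep cells. It was made over the 8 hashtags with cluster 10 left out, with edgeR's quasi-likelihood test on summed counts, so the members' genes could be read in the remaining cells. Of 9605 genes, 71 passed an adjusted p of 0.05 (0.739%), 40 higher in Crep (0.416%) and 31 lower (0.323%). The number that passed was 17 to 123 with 1 lot left out, lowest without Crep 2 and highest without Cren 3. Of the 24 genes named against the other Cren cells, 0 passed in edgeR and 2 (Zeb2 and Ctla4) passed in DESeq2, where 153 of 10557 genes with an adjusted p did (1.45%). An unadjusted p under 0.05 in edgeR was found for 7 of the 24 and for 1095 of all 9605 genes (11.4%). Of the 24 genes named against cluster 11, 22 were tested, of which 2 passed in edgeR (Pdcd1 and Crtam), 7 had an unadjusted p under 0.05, and 4 passed in DESeq2 (Tcf7, Penk, Pdcd1 and Crtam). Klrg1 was at 237, 240, 240 and 474 CPM on edgeR's scale in Crep 1 to Crep 4, against 157, 97.0, 114 and 25.7 in Cren 1 to Cren 4. It was not called (log2 difference 1.57, SE 0.53, adjusted p = 0.340 in edgeR). Pdcd1 (-1.63, SE 0.20, adjusted p = 0.0102 in edgeR) and Crtam (-0.47, SE 0.10, adjusted p = 0.0431 in edgeR) were lower in Crep. Crtam lost its call in alternatives, with an adjusted p of up to 0.124 in edgeR (without Crep 1). Bcl6 was higher in Crep (0.77, SE 0.14, adjusted p = 0.0269 in edgeR), and it too lost its call in alternatives, with an adjusted p of up to 0.103 in edgeR (without Cren 1).

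Leaving the cluster in or out moved the group difference of its segments without a call either way. With all cells, Trav7-3 differed by -2.56 on the log2 scale (adjusted p = 0.630 in edgeR), and with cluster 10 left out by -0.52 (adjusted p = 0.891 in edgeR). For Trbv2 the differences were -1.47 and -0.63. In Cren 3, Trav7-3 was at 174 CPM over all cells and at 26.6 without the cluster. Trav1 was at 94.5 and 16.3, and Trbv2 at 81.8 and 19.4.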

How the data were processed

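Raw UMI counts per gene and cell, and an annotation of each cell (counts of UMIs and genes, percent of mitochondrial, ribosomal and heat shock UMIs, map scores, hashtag and cluster), were used as deposited by the authors. The submitters' processing notes name build mm10 and the tools Seurat 4.3.0, Cell Ranger 7.0.0 and bcl2fastq 2.20.0.422. All deposited cells, which have 500 or more genes and a mitochondrial share of up to 3%, were kept. How doublets were treated before deposit is not given in the sources used here, and no caller was run. The deposited percent values and the scores of the map were used as descriptions only.

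Levels are CPM, the UMIs of a gene summed over cells, divided by all their UMIs and scaled to a fixed total. Intervals (95%) are Wilson for shares, exact Poisson for levels and exact conditional for ratios, and cover counting error only. A count of 0 was given a limit of 3 counts. Thinning drew 2000 UMIs per cell and left out shallower cells, 18 of cluster 10 and 235 of the other Cren 3 cells. Named genes were the 12 highest and 12 lowest ratios of each comparison, receptor segments apart, each V segment in at least 5% of the cluster, and list examples. The members and gene lists were chosen with earlier results of these data known. The genotype comparison used edgeR 4.0.16 (quasi-likelihood, TMM, Benjamini-Hochberg) on counts summed per hashtag, with DESeq2 1.42.0 as an alternative. Shares were compared by exact permutation. Both procedures were tested on simulated data. Python 3.11.15, scipy 1.17.1 and R 4.3.3 were used. Sequences are from GENCODE vM21.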

Additional observations from a re-analysis of the deposited data

Results flagged for a closer look

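The share of cells in cluster 10 was 9.95% in Cren 3, with the other 3 Cren lots between 0% and 0.0905%, so this lot lay far from the rest of its group. Outside the cluster, the share of cells with UMIs of 2 or 3 of Trbv2, Trav7-3 and Trav1 was 1.83% in Cren 3, again far from the other 3 Cren lots. The same share was 0.1% in Crep 3, which is 1 cell of 1000, where the other 3 Crep lots had 0 cells. The cut-off used is set for about 1 in 20 groups by chance when values spread normally. Shares at or near 0 do not spread so, and in Crep a single cell passes it.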

How the results depend on the processing

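Cluster 10 rests on a single lot of cells, and nothing here shows whether another mouse would give it. Leaving out 1 lot at a time moved the Crep minus Cren share from -3.30 to 0.0193 points, and it reversed only without Cren 3 (0.0193). Requiring 2 UMIs gave 83.9% for Trav7-3, 58.9% for Trav1, 44.6% for Trbv2 and 8.93% for Trav6-3, and thinning gave 62.8% for Trbv2 and 26.6% for Trav6-3. With no minimum level 2227 genes were called against the other Cren cells and 1016 against cluster 11, and with a minimum of 200 CPM 13 and 180. The number of genes past an adjusted p of 0.05 between Crep and Cren was 71 in edgeR with its low-count filter, 82 in edgeR with none, 153 in DESeq2 with only its own filtering of low counts, and 17 to 123 in edgeR with 1 lot left out (123 without Cren 3, 17 without Crep 2). The cause of the DESeq2 difference was not tested. Of the 368 alternatives for 52 named gene results, 357 were labelled the same, 11 moved and none reversed direction. The named genes of each comparison were picked for their high or low ratios. A reversal was thus unlikely from the start, and its absence tests little. No paired analysis was possible because the hashtag numbers of Crep and Cren carry no stated pairing. Depth limits single cells: a cell with 0 UMIs of a segment is not shown to lack it. Each of the 8 lots, left out, moved the edgeR count by over 1.5 times.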
